A study of Mus musculus with 745 samples.

Results

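Of 745 single brain endothelial cells, 54 (7.25%, exact 95% interval 5.49 to 9.35) carried astrocyte transcripts in their well. A well was taken as astrocyte-positive when at least 1 of Aldoc, Slc1a2 and Slc1a3 reached 50 CPM (the gene's count over the well's total count, scaled as counts-per-million). The comparison wells were the 636 with a count of 0 on all 3 genes, called no-count wells here. The remaining 55 wells had a count on at least 1 of the genes but none at 50 CPM, and are called intermediate. Aldoc, Slc1a2 and Slc1a3 chose the wells, so their values are given as a description, and they were left out of every test.

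The wells held cells labelled as primary brain endothelium of young mice, 3 months old. They were dissociated with a Miltenyi neural kit and isolated by FACS, with a gate that the sources used here do not describe. No strain, sex or treatment is given, and no age was compared. The titles divide the cells into sets named Young1, Young2 and AY_Y3. What a set stands for, an animal, pooled animals or a sequencing plate, is left unsaid in the labels, so the spread between sets may be technical. Cells of 1 set are not replicates, and the sets were the units of the comparison.

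Astrocytes are the glial cells that wrap brain vessels with their endfeet, flattened processes that lie against the basement membrane shared with endothelium and pericytes. They take up glutamate from synapses through Slc1a2 (GLT-1) and Slc1a3 (GLAST), and express the glycolytic enzyme aldolase C, encoded by Aldoc. Transcripts of some astrocyte genes are carried out into the processes and endfeet. A well sorted for a single endothelial cell can hold transcripts of another cell when a cell, a fragment or free RNA is sorted with it, and the counts of a well do not separate these.

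Slc1a2 reached 50 CPM in 34 of the 54 wells, Aldoc in 28 and Slc1a3 in 24. The genes often came together: 10 wells had all 3 at 50 CPM, 12 had 2 and 32 had 1. Among the 32, the single gene was Slc1a2 in 14 wells, Aldoc in 10 and Slc1a3 in 8. Of the 34 wells with Slc1a2 at 50 CPM, 16 (47.1%) also had Aldoc at that level, against 12 of the other 711 wells (1.69%). Slc1a3 stood at 50 CPM in 14 of those 34 (41.2%), against 10 of 711 (1.41%). Of the 28 Aldoc wells, 12 (42.9%) also had Slc1a3, against 12 of the other 717 (1.67%).

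The summed level of the 3 genes ran from 84.2 to 8955 CPM, with a median of 922. Few wells lay near the threshold. The intermediate wells had a median of 2.65 CPM on their highest of the 3 genes. The lowest astrocyte-positive wells had 84.2, 88.6, 97.2 and 119.2 CPM on their highest gene, Slc1a2, Slc1a2, Aldoc and Slc1a3, from 39 to 150 counts. The highest intermediate wells had 46.7, 40.3, 34.4 and 32.8 CPM, all on Slc1a3, from 21 to 32 counts. Depth could hide a level of 50 CPM in few wells: a floor of 3 counts came to 50 CPM or more in 4 of the 636 no-count wells.

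**Figure D1:**
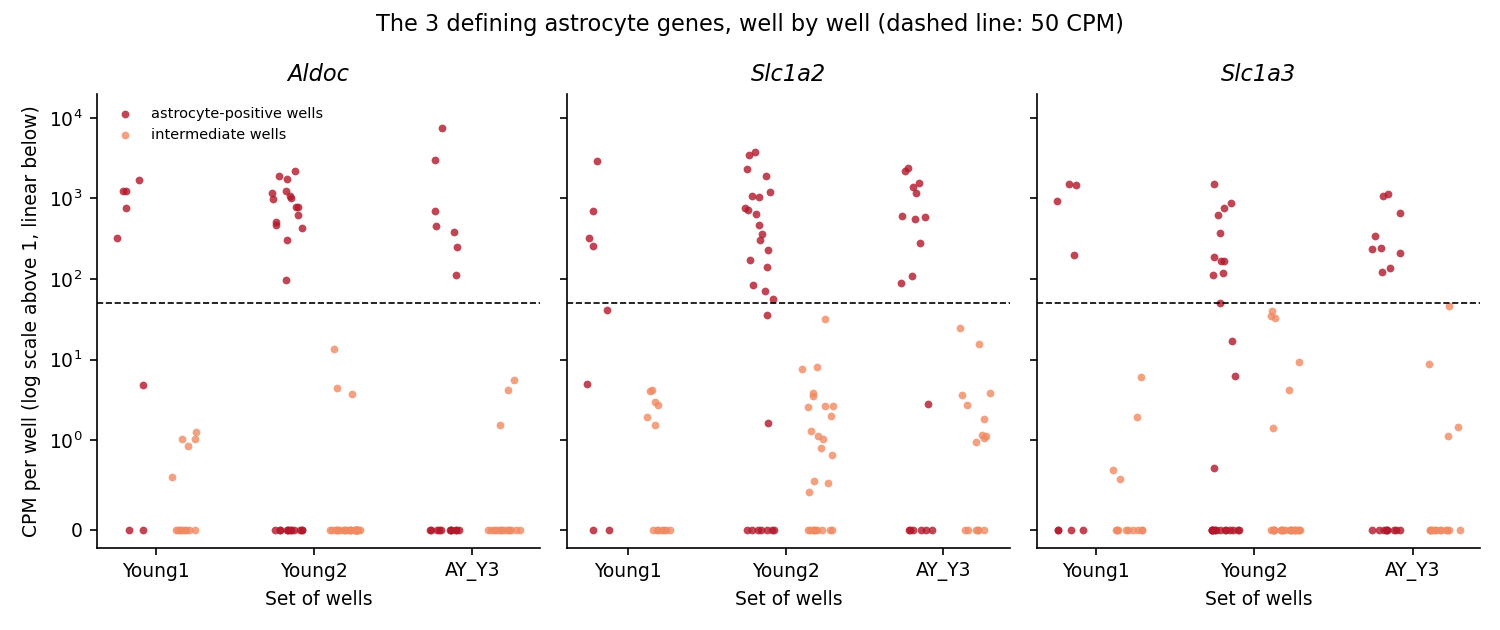
Level of Aldoc, Slc1a2 and Slc1a3 in each astrocyte-positive well (dark red) and each intermediate well (orange), by set. The vertical axis is CPM on a log scale above 1 and a linear scale below, and the dashed line marks 50 CPM. Most dark red points lie between 100 and 5000 CPM or at 0, and most orange points lie under 10 CPM.

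All 3 sets held such wells. Young1 had 8 of them (3.56% of the set, exact 95% interval 1.55 to 6.89), Young2 had 28 (10.9%, 7.33 to 15.3) and AY_Y3 had 18 (6.87%, 4.12 to 10.6). The Young1 and Young2 intervals did not overlap; they cover counting error only, and no test between single sets was possible. Counts per well had a median of 710200 in astrocyte-positive wells, 808265 in intermediate wells and 585856 in no-count wells, with ranges from 105623 to 1910599 and from 52819 to 2421434 in the first and the last. After thinning each well to 50000 counts, the medians were 1832.5, 1678 and 1696.5 genes with a count (2330.5, 2185 and 2206.5 unthinned). No 2 wells held identical counts.

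The wells were endothelial first. Every one of the 54 had counts of Cldn5, a tight-junction claudin, of Flt1, a VEGF receptor, and of Ly6c1, a surface protein of mouse brain endothelium. Pecam1 was counted in 49 of 54 and Cdh5, the adherens-junction cadherin, in 43 (561 and 470 of 636 no-count wells). The 24 general endothelial markers summed to a median of 38958 CPM in astrocyte-positive wells (lowest 19061, highest 74234) and 40034 CPM in no-count wells (lowest 6546, highest 71951). The ranges overlapped almost wholly, and 2 of the 54 wells lay below 24106 CPM, the 5th percentile of no-count wells.

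By set, the markers summed to 37909, 37549 and 40919 CPM over the astrocyte-positive wells of Young1, Young2 and AY_Y3, against 37976, 38161 and 42957 CPM over the no-count wells. Slc2a1, the glucose transporter of the blood-brain barrier, stood at 7437, 8453 and 9646 CPM against 8360, 8868 and 10909.6. Cldn5 stood at 2873, 2689 and 3729 CPM against 3524, 3160 and 3920. Both were slightly lower in each of the sets, and the groups overlapped. None of the 24 markers was called, and their median fitted log2 fold change was 0.06, against -0.73 over all genes tested.

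**Figure D2:**
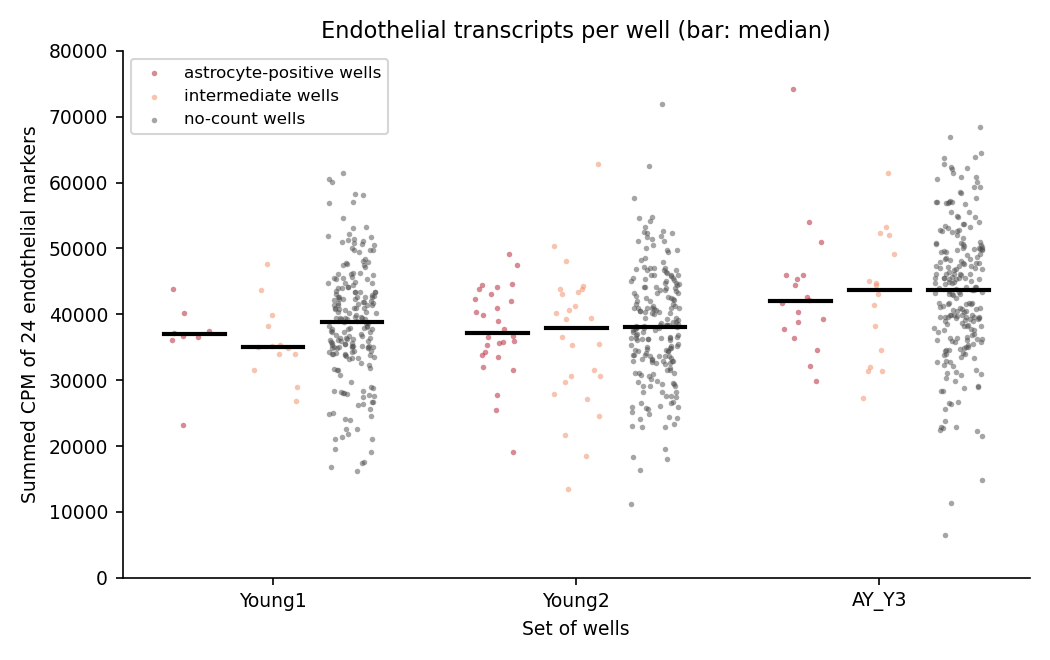
Summed CPM of 24 endothelial markers in each well, by set and class of well (dark red astrocyte-positive, orange intermediate, grey no-count), with a bar at the median. The clouds overlap in each set, and 1 astrocyte-positive well of Young2 lies at 19061 CPM.

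To ask which genes differed besides the 3 that chose the wells, the raw counts of each class were added up within each set and fitted with edgeR's quasi-likelihood test, with the set as a block. Of 11538 genes tested, 0 passed an adjusted p of 0.05 in either direction (0% higher, 0% lower). At an unadjusted p under 0.05, 50 genes were higher in astrocyte-positive wells (0.433%) and 719 lower (6.23%). The sums varied widely between sets: the common biological coefficient of variation was 1.30, and only 4 residual degrees of freedom were left. DESeq2 on the same sums called 21 genes higher (0.182%) and 279 lower (2.42%). Of the 21, 14 belonged to the astrocyte lists. Of the 279, 55.2% had no count in any astrocyte-positive well and 89.2% had a count in 3 wells or fewer, where 54 wells were set against 636. Limma on mean log2 values called 0, with 357 genes at an unadjusted p under 0.05 (3.09%). The gene results that follow are therefore levels and shares per set, and no gene in them passed edgeR's adjusted threshold. Summed CPM of a gene found in few wells can rest on 1 of them, so the share of wells with a count is given beside it.

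Astrocyte genes were among the genes that came along. The list of 51 astrocyte identity genes, without the 3 that chose the wells, summed to 7520, 4165 and 3346 CPM in the astrocyte-positive wells of Young1, Young2 and AY_Y3, and to 2199, 2123 and 2033 CPM in the no-count wells. The level was above that of the no-count wells in each set, and the groups did not overlap. In the intermediate wells the list summed to 1539, 1863 and 2413 CPM. After thinning, the share of wells with a count was higher without overlap between sets for 22 of the 51 genes and lower for 1, against 3.86% and 9.23% of all 19789 genes with a count. Summed CPM was higher without overlap for 16 of the 51 and lower for 3 (2.01% and 18.7% of all genes). Of the 28 tested, 12 were higher at an unadjusted p under 0.05 and 0 lower (0.433% and 6.23% of all genes). A fitted log2 fold change above 0 was seen for 25, and the median was 2.49 (-0.73 over all genes). DESeq2 called 11 of the 28 higher (0.182% of all genes). The filter could keep a gene nearly absent from no-count wells through the astrocyte-positive sums. The values of the 28 can therefore be tilted upward and are given as a description. The same holds for the other astrocyte lists. Endothelium also expresses some of the list: S1pr1, a lipid receptor, had a count in 54 of 54 and 630 of 636 wells, at 1153 ± 247.5 CPM against 1303 ± 25.8 (SD, n = 3 sets), and made up most of the list's level in no-count wells.

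Among astrocyte genes found in under 1% of no-count wells, Cxcl14, a secreted chemokine, had a count in the most astrocyte-positive wells. It had a count in 17 of 54 astrocyte-positive wells (31.5%) and in 0 of 636 no-count wells, which allows a share of up to 0.472%. The summed level was 122.4, 35.7 and 17.01 CPM in Young1, Young2 and AY_Y3 against 0, 0 and 0. Over all sets this was at least 6279-fold higher, set against a floor of 3 counts over the no-count class. The highest well gave 24.9% of the gene's counts. Mmd2, a membrane protein of the progestin receptor family, had a count in 14 wells against 2 and summed to 886, 107.6 and 91.6 CPM against 0, 0.531 and 0.00909. Pla2g7, which encodes a secreted phospholipase, had a count in 12 wells against 4 and summed to 513, 120.9 and 206.98 CPM against 0.00567, 0.612 and 0.0182. All 3 genes were near 0 in the no-count wells of every set, and in each the Young1 wells were the highest.

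Surface and membrane proteins of astrocytes were carried as well. Ntsr2, a neurotensin receptor, had a count in 9 wells against 1, at 298, 72.5 and 30.1 CPM against 0, 0.0068 and 0. Gpr37l1, an orphan receptor of glia, had a count in 9 wells against 2, at 182.4, 187.4 and 36.7 CPM against 0, 0.0340 and 0. Mlc1, an endfoot membrane protein mutated in a leukodystrophy, had a count in 8 wells against 1, at 345, 31.97 and 35.8 CPM against 0, 0.0748 and 0. Each was above the no-count level in each set, from few wells: the highest well gave 28.6%, 24.1% and 43.99% of the gene's counts. Gpm6b, a proteolipid membrane protein, was more widely found, with a count in 16 wells (29.6%) against 20 (3.14%), at 288, 166.9 and 212.9 CPM against 0.210, 6.80 and 62.6. Its no-count level in AY_Y3 was the highest of those sets but under all astrocyte-positive levels.

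Genes that handle the amino acid transmitters had summed levels that overlapped between the classes but were higher in 3 of 3 sets. Glul, glutamine synthetase, stood at 775, 1217 and 1254 CPM against 1333, 1252 and 1395. Over the list of 15 genes of glutamate, GABA and serine handling, 0 of 9 tested had an unadjusted p under 0.05. Of all genes, 0.433% were higher and 6.23% lower at that level. Summed CPM of the list was 2482, 2135 and 2531 against 2084, 2003 and 2360.

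Matrix and secreted proteins formed the next group. Cst3, the protease inhibitor cystatin C, had a count in 53 of 54 wells and stood at 1892, 1739 and 2030 CPM against 1021, 987 and 946. The levels were close to each other within each class and did not overlap between them. The fitted log2 fold change was 1.02 ± 0.17 (SE), with an unadjusted p of 0.000364 and an adjusted p of 0.723 by edgeR, and DESeq2 gave an adjusted p of 2.67e-05. Cpe, a carboxypeptidase that processes peptide hormones, had a count in 61.1% of wells against 25.5%, at 635, 439 and 842 CPM against 118.3, 149.8 and 190.4. The proteoglycan genes Ncan and Cspg5, which encode neurocan and neuroglycan C, had a count in 11 and 7 wells against 4 and 1. Ptprz1, a receptor phosphatase that binds matrix, had one in 11 wells against 6. Sparcl1, a matrix protein of astrocytes that endothelium also expresses, stood at 1789, 2832 and 2950 CPM against 1699, 2018 and 2046, and the groups overlapped. Of 10 tested genes of this list, 5 were higher at an unadjusted p under 0.05 and 1 was lower (0.433% and 6.23% of all genes).

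The lipid genes were mixed. Pltp, a phospholipid transfer protein and the most abundant of this list, stood at 4205 ± 665 CPM against 4203 ± 480.2 (SD, n = 3 sets). Apoe, the main lipid carrier that astrocytes secrete, had a count in 52 of 54 wells (96.3%) and in 478 of 636 (75.2%). It stood at 2704, 1314 and 940 CPM against 768, 641 and 777, with the Young1 wells the highest and no overlap. Clu, which encodes clusterin, had a count in 26 wells (48.1%) against 94 (14.8%), at 1316, 485 and 701 CPM against 269, 341 and 471. Clu is also on the arterial list of this report. Scd2, a fatty acid desaturase, had a count in 19 wells (35.2%) against 97 (15.3%), but its summed level of 309, 200 and 63.2 CPM overlapped with 54.2, 34.2 and 67.1. Over the list of 16 lipid and apolipoprotein genes, 2 of 13 tested were higher at an unadjusted p under 0.05 and 0 lower (0.433% and 6.23% of all genes).

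The metallothioneins, which bind zinc and copper, differed among themselves. Mt3, the neural metallothionein, had a count in 17 wells (31.5%) against 12 (1.89%), at 36.5, 47.01 and 87.2 CPM against 1.38, 0.953 and 0.973. Mt1 stood at 358, 499 and 441 CPM against 293, 262.02 and 261.9, and Mt2 at 71.4, 116.9 and 80.4 CPM against 78.6, 63.8 and 52.98. Mt2 overlapped between the classes, Mt1 and Mt3 did not.

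The transcription factors were mixed. Id3, Nfib and Nfia were the most abundant of this list, with log2 fold changes of 0.23, -0.52 and 0.29. Their unadjusted p values by edgeR were 0.0804, 0.303 and 0.510. Of 7 tested genes of the list, 1 was higher at an unadjusted p under 0.05 and 0 lower (0.433% and 6.23% of all genes). Thinned shares were higher without overlap for 3 of the 16 and lower for 0 (3.86% and 9.23% of all genes with a count). Rorb, a nuclear receptor, had a count in 7 wells against 8 no-count wells (1.26%). Its level was 109.2, 9.59 and 31.02 CPM against 0.0170, 0.0476 and 0.600. Sox9, which specifies glia, had a count in 10 wells (18.5%) against 38 (5.97%), at 98.2, 33.9 and 26.2 CPM against 8.26, 8.65 and 5.82. Sox2, a neural stem cell factor that astrocytes keep, had a count in 0 of 54 wells, which allows a share of up to 5.56%. It also had a count in 0 of 636 no-count wells, so it does not tell the classes apart.

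Several astrocyte genes in wide use as markers had a count in 2 wells or fewer. Gfap, the astrocyte intermediate filament, had a count in 1 of 54 astrocyte-positive wells and 4 of 636 no-count wells. Aqp4, the water channel of endfeet, had a count in 1 well, of Young1, at 159.4 CPM over that set's wells, and in 3 no-count wells. Aldh1l1, a folate enzyme, had a count in 1 well against 1. The GABA transporter Slc6a11 and the endfoot connexin Gjb6 had a count in 2 wells each, against 1 and 0. Kcnj10, the potassium channel Kir4.1, was found more often, with a count in 7 of 54 wells (12.96%), all of Young2 (77.6 CPM there), against 2 (0.314%). The 4 wells with the highest level of the defining genes all had 0 counts of Aqp4 and of Gfap. Over the 16 endfoot genes, 2 of 10 tested were higher at an unadjusted p under 0.05 and 0 lower (0.433% and 6.23% of all genes). Thinned shares were higher without overlap for 6 of the 16 and lower for 0 (3.86% and 9.23% of all genes with a count). Of 9 tested genes of the reactive astrocyte list, 0 passed an unadjusted p of 0.05, and thinned shares were higher without overlap for 0.

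**Figure D3:**
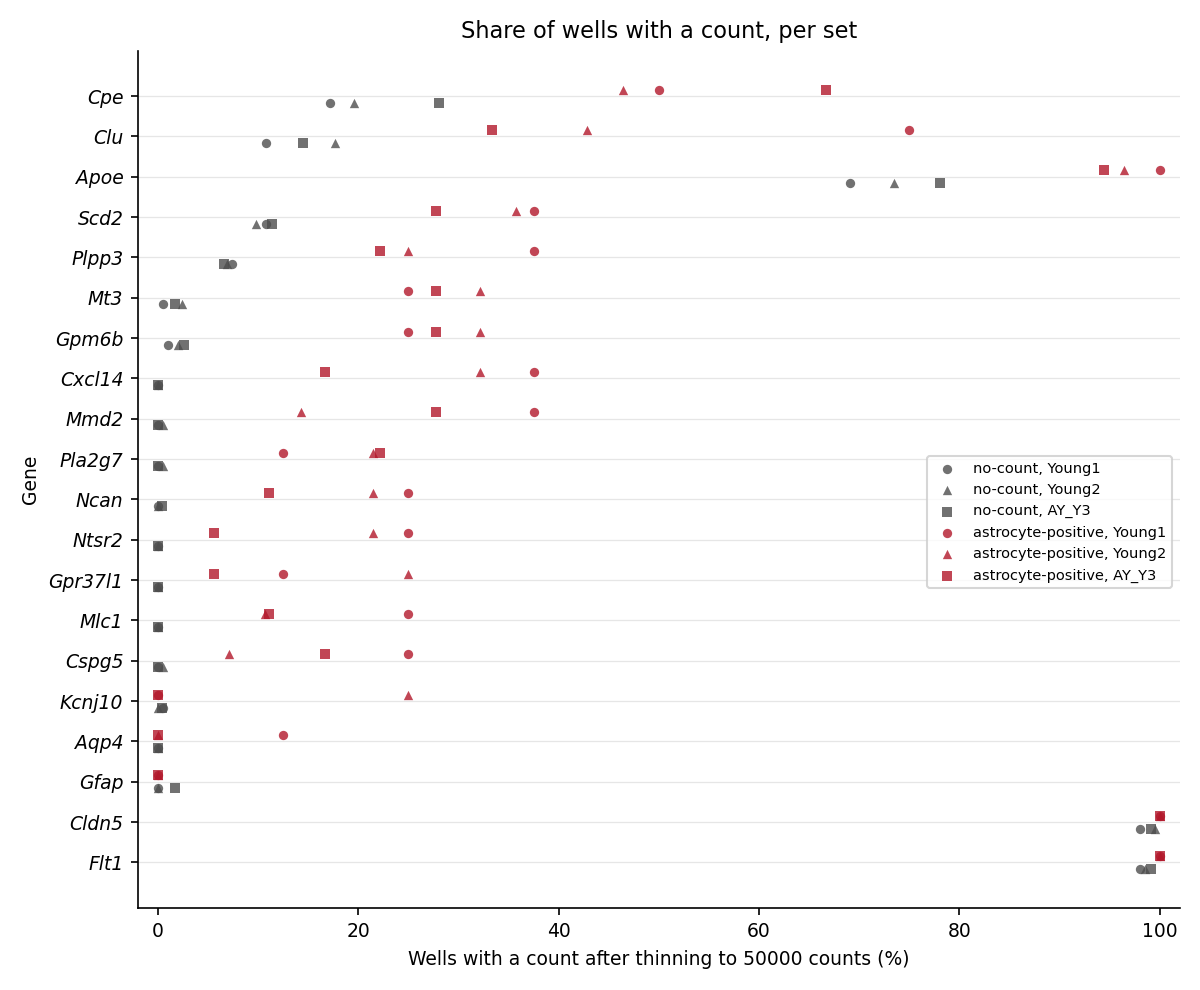
Share of wells with a count after thinning each well to 50000 counts, in percent, for 18 astrocyte genes and 2 endothelial genes. Each symbol is 1 set (circle Young1, triangle Young2, square AY_Y3), dark red for astrocyte-positive and grey for no-count wells; with 8 astrocyte-positive wells in Young1, 1 well is 12.5%. Red lies right of grey in each set from Cpe to Cspg5, while the red symbols of Kcnj10, Aqp4 and Gfap lie at 0 in at least 2 sets.

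To see how much of an astrocyte transcriptome each well held, the 63 astrocyte genes found in under 1% of no-count wells were counted per well. They were drawn from the 9 astrocyte lists by their low share in no-count wells, so the gap between the classes is partly built in and was not tested. Of the 63, 45 had a count in at least 1 astrocyte-positive well and 15 in 5 or more. An astrocyte-positive well had a median of 2 of these genes and at most 16. In no-count wells the median was 0 and the highest 5, and in intermediate wells 0 and 7. Wells with 5 or more of the genes numbered 17 of 54, 1 of 55 and 1 of 636. At the other end, 16 of the 54 wells had none of the 63.

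On these 63 genes the intermediate wells stood between the other classes. The genes were chosen by a low share in no-count wells, so a higher share in intermediate wells is partly built in and was not tested. The 51 astrocyte identity genes, not chosen by that share, did not give this order in every set. They summed to 1539, 1863 and 2413 CPM in intermediate wells of Young1, Young2 and AY_Y3, against 2199, 2123 and 2033 in no-count wells. Any of the 63 genes had a count in 34.5% of them, in 70.4% of astrocyte-positive wells and in 15.1% of no-count wells. By set the gene list was met in 23.1% (Young1), 34.6% (Young2) and 43.8% (AY_Y3) of intermediate wells, against 14.7%, 14.2% and 16.2% in no-count wells, higher in 3 of 3 sets. After thinning, the shares were 64.8%, 18.2% and 6.76% for astrocyte-positive, intermediate and no-count wells.

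Within the 54 wells, those with more of the 3 defining genes held more of the other astrocyte genes. Wells with 1 of the 3 at 50 CPM had a median of 1 of the 63 genes (range 0 to 10), wells with 2 had 5 (0 to 10), and wells with all 3 had 10 (2 to 16). Of the 32 wells with a single defining gene, 1 had 5 or more of the 63, against 7 of 12 and 9 of 10. The 10 wells with Aldoc alone had a median of 0 (range 0 to 2), and 6 of them had none. The 14 wells with Slc1a2 alone had a median of 1.5 (0 to 3), and the 8 with Slc1a3 alone 1 (0 to 10). Across the 54 wells, the summed defining level and the number of other astrocyte genes had a Spearman rho of 0.61, given as a description, since both are taken from the same libraries. Total counts and the number of genes had a rho of 0.08.

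**Figure D4:**
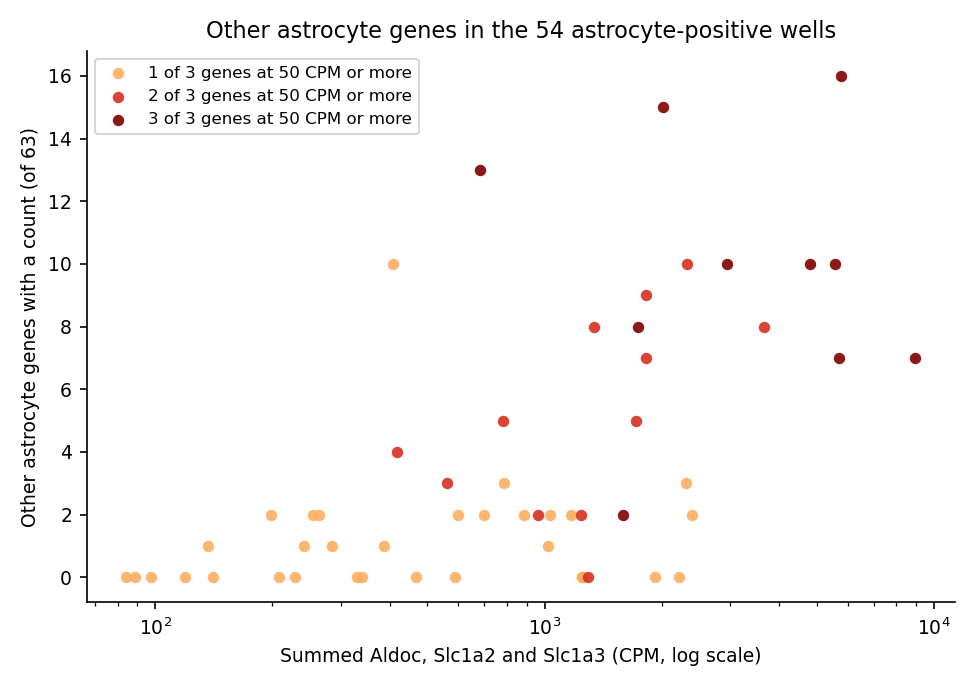
Number of the 63 other astrocyte genes with a count in each astrocyte-positive well (vertical) against the summed CPM of Aldoc, Slc1a2 and Slc1a3 (horizontal, log scale). Colour gives how many of the 3 genes reached 50 CPM; wells with all 3 lie between 2 and 16 genes, and all but 1 of the wells with a single gene lie at 3 or fewer.

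By level, 19 wells had a summed defining level from 50 to 500 CPM, 31 from 500 to 5000 and 4 of 5000 CPM or more. The 19 had a median of 0 of the 63 genes, the 31 a median of 2 and the 4 a median of 8.5. The highest well, of AY_Y3, had 7448 CPM of Aldoc, 1385 of Slc1a2 and 122.3 of Slc1a3, with 36434 CPM of endothelial markers. The next, of Young2, had 513 CPM of Aldoc, 3768 of Slc1a2 and 1505 of Slc1a3. It had the most other astrocyte genes, 16, and the lowest endothelial sum of the 54, 19061 CPM, with Cldn5 at 642 CPM. The other 2, of Young2 and Young1, had endothelial sums of 40332 and 40230 CPM. The endothelial sum was thus near the median of no-count wells in 3 of these 4.

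The vessel segments were read from marker lists for arterial, capillary and venous endothelium, each gene scaled within its set, and a well was given the segment of its highest score. This cuts a continuous score: 10 of the 54 wells (18.5%) lay within 0.1 of the cut, against 77 of 636 (12.1%). Of the 54 wells, 27 scored highest for capillary (50%, exact 95% interval 36.1 to 63.9), 14 for arterial (25.9%, 14.96 to 39.7) and 13 for venous genes (24.1%, 13.5 to 37.6). No-count wells divided into 48.6% capillary, 30.97% arterial and 20.4% venous. The intervals pool the wells of all sets and cover counting error only, and the difference in makeup was not tested over sets.

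The sets did not order the segments alike. Arterial wells made up 37.5%, 21.4% and 27.8% of the astrocyte-positive wells of Young1, Young2 and AY_Y3, against 34.3%, 32.8% and 26.3% of no-count wells. The venous share was 12.5%, 21.4% and 33.3%, against 20.1%, 19.6% and 21.5%. The level of astrocyte transcripts did not follow the segment closely either: the summed defining level had a median of 973 CPM in arterial, 884 in capillary and 1237 in venous wells, with maxima of 5786, 8955 and 5704 CPM.

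**Figure D5:**
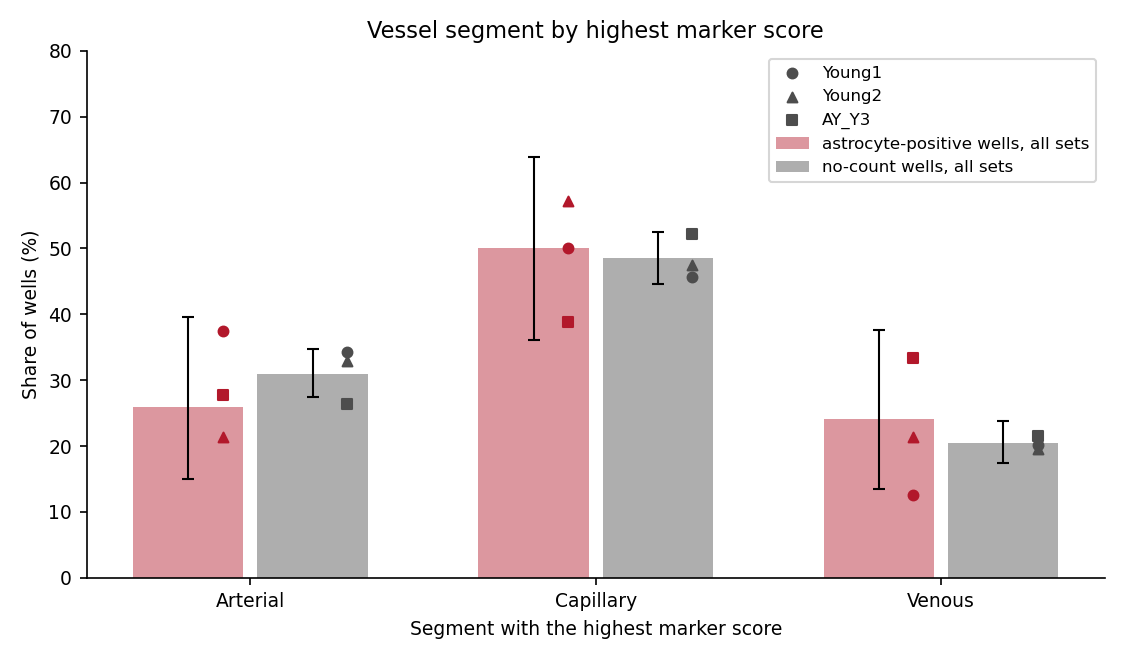
Share of astrocyte-positive (red) and no-count wells (grey) whose highest segment score was arterial, capillary or venous, in percent. Bars give all sets together with the exact 95% binomial interval, and symbols give each set (circle Young1, triangle Young2, square AY_Y3); the red intervals cover the grey bars in each segment.

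A few single segment genes stood apart. Itm2a, a membrane protein of capillary endothelium, stood at 9623, 10064 and 9872 CPM against 9285, 9147 and 8720, higher without overlap, with a log2 fold change of 0.21 ± 0.08 (SE; unadjusted p 0.0381, adjusted p 0.731 by edgeR). Cxcl12, the chemokine ligand of CXCR4, stood at 3041, 3068 and 2897 CPM against 2469, 2443 and 2667, also without overlap. Its log2 fold change was 0.33 (unadjusted p 0.111, adjusted p 0.943 by edgeR). The tip-cell and arterial Notch ligand Dll4 had a count in 38.9% of wells against 20.1%, but its summed level of 439, 39.1 and 226.03 CPM overlapped with 111.6, 97.3 and 75.8. Mgp, a calcification inhibitor of large vessels, stood at 111.6, 148.5 and 53.1 CPM against 248.5, 360 and 614, lower without overlap. Of 24 tested arterial genes, 0 were higher at an unadjusted p under 0.05 and 4 were lower (0.433% and 6.23% of all genes). The 4 were Mgp, Pi16, Cytl1 and Fbln5. Cytl1 had a count in 0 astrocyte-positive wells, Fbln5 in 1 and Pi16 in 2, so that 3 of the 4 rest on few wells. Of 15 capillary genes 1 was higher, and of 17 venous genes 0 moved either way at that level. Summed CPM was lower without overlap for 6 of 25 arterial genes and higher for 2, against 18.7% and 2.01% of all genes. Thinned shares of the arterial genes leaned the other way, higher without overlap for 5 and lower for 2 (3.86% and 9.23% of all genes). The arterial list had a median per well of 4754 CPM against 3057 in no-count wells. For the 15 capillary genes, summed CPM was higher without overlap for 2 and lower for 1.

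Transcripts of other vessel and brain cells were read from lists of their markers. Smooth muscle markers summed to 33.3 ± 33.6 CPM in astrocyte-positive wells and 311 ± 164.6 in no-count wells (SD, n = 3 sets). Acta2, smooth muscle actin, had a count in 0 of 54 wells, which allows a share of up to 5.56%, against 13 of 636 (2.04%). Myh11, smooth muscle myosin, had one in 1 well against 19 (2.99%). These well counts alone do not show a lower share. Only 5 of the 10 genes of the list had a count in any astrocyte-positive well. Of the 8 tested, 5 were lower and 0 higher at an unadjusted p under 0.05, against 6.23% and 0.433% of all genes, whose median log2 fold change was -0.73. Pericyte markers summed to 61.9, 1191 and 221.96 CPM against 1424, 1529 and 950, and 6 of 54 wells (11.1%) reached 1000 CPM on them, against 16.7% of no-count wells. Rgs5, a pericyte regulator of G-protein signalling, stood at 61.9, 481 and 221.8 CPM against 567, 559 and 500. Both mural lists were rare in either class, with a median of 0 CPM per well. Of 12 tested pericyte genes, 0 passed an unadjusted p of 0.05.

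The lists of other glia and neurons gave mixed values. Oligodendrocyte precursor markers summed to 1.49 ± 1.70 CPM against 27.7 ± 12.04, and Cspg4 had a count in 2 of the 54 wells (3.30% of no-count wells). Microglia and macrophage markers summed to 206.9, 234.5 and 174.5 CPM against 166.6, 185.7 and 179.6, and C1qa, a complement gene that marks microglia, had a count in 1 of 54 wells (0.786% of no-count wells). Neuronal markers summed to 1369, 820 and 365 CPM against 861, 670 and 627; most of it was Calm2, a calmodulin that many cell types express, at a mean of 786 CPM. The oligodendrocyte list summed to 2938, 1579 and 2848 CPM against 1950, 2153 and 3870, where 1 no-count well reached 109431 CPM. Its median per well was 1828 CPM against 1701, and 81.5% of wells reached 1000 CPM against 71.4%. Most of it was Mal, with a count in 50 of the 54 wells, and Car2, a carbonic anhydrase. Car2 had a count in 30 wells (55.6%) against 37.7% and a log2 fold change of 1.29 (unadjusted p 0.0921, adjusted p 0.897 by edgeR). Thinned shares were higher without overlap for 3 of the 22 genes and lower for 2 (3.86% and 9.23% of all genes with a count). Mbp, myelin basic protein, had a count in 6 of 54 wells (58 of 636, 9.12%). The immediate early and dissociation stress genes summed to 6478 ± 2764 CPM against 6271 ± 2138, with overlap.

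Genes outside the lists were searched for the pattern of the astrocyte genes: a thinned share of at least 10% in astrocyte-positive wells and a count in few no-count wells. This rule found 17 genes, of which 11 were on the astrocyte lists, 0 on any other list and 6 on none. The 6 included Luzp2, Ramp1, Ntrk2 and S100b, chosen by their values in these wells. Luzp2, a leucine zipper protein, had a count in 15 wells against 2, at 1.06, 147.5 and 64.6 CPM against 0.00567, 0.340 and 0. Ramp1, a receptor activity modifying protein, had a count in 9 wells against 2, at 0, 61.3 and 61.6 CPM against 0, 1.54 and 0. Ntrk2, the BDNF receptor TrkB, had a count in 8 wells against 4, and S100b, a calcium-binding protein of glia, in 6 against 5. Gabra2 had a count in 7 wells against 11, and E230020A03Rik in 7 against 6. Ramp1, Ntrk2, S100b and Gabra2 had a count in 0 of the astrocyte-positive wells of Young1. Tspan7, a tetraspanin, had a larger share in both classes, with a count in 21 wells (38.9%) against 23 (3.62%), at 1089, 377 and 273 CPM against 7.13, 16.2 and 15.9.

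Mitochondrial transcripts made up more of the counts in the astrocyte-positive wells. They made up 5.25%, 4.44% and 4.30% of the counts of astrocyte-positive wells in Young1, Young2 and AY_Y3, against 3.63%, 4.04% and 3.37% of no-count wells. Intermediate wells had 3.94%, 3.68% and 3.09%, below the no-count wells in Young2 and AY_Y3. The mitochondrial ribosomal RNA mt-Rnr2 had a log2 fold change of 0.48 ± 0.09 (SE; unadjusted p 0.000662, adjusted p 0.723 by edgeR). The part of the mitochondrial share in the gene levels was not tested.

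The last letter and number of a title were read as a position on a plate. Astrocyte-positive wells lay under 16 of 16 letters and 18 of 19 numbers. Wells that shared a letter or a number with the highest well of their set were astrocyte-positive in 0 of 27, 2 of 31 and 3 of 30 cases in Young1, Young2 and AY_Y3 (0%, 6.45% and 10%), against 7, 25 and 14 of the other wells (3.55%, 11.1% and 6.06%).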

How the data were processed

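Single-cell RNA-seq libraries of FACS-isolated mouse brain endothelial cells were used, with 1 cell per sample. The deposited values were raw counts of reads per gene symbol, 20607 symbols by 745 cells, with no molecular identifiers, so intervals and floors cover counting error only. Bowtie 0.12.2 and the builds mm8 and mm10 are named in the submitters' processing notes; the counting tool, annotation and use of strand stand as not given in the sources used here. Reads of overlapping and antisense genes may therefore be mixed.

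No well was left out and no doublet caller was run. Counts were summed per set and class (astrocyte-positive, intermediate, no-count), giving 9 sums of 5669925 to 176300440 counts. edgeR 4.0.16 (R 4.3.3) tested astrocyte-positive against no-count sums with its quasi-likelihood test, TMM, the set as a block, its default filter and a count in at least 10 cells, with Benjamini-Hochberg adjustment over 11538 genes. All classes of a set came from that set, which is where the pairing comes from. DESeq2 1.42.0 and limma 3.58.1 were alternatives. CPM per set is the gene's summed count over the summed total of the class. On simulated sums with a far smaller spread than the real one, edgeR recovered 8%, 68%, 98% and 100% of changes of 2, 4, 8 and 16-fold among 11538 genes, with 12 false calls. Thinning drew 50000 counts per well (seed 1). Named genes were those past the threshold, of which there were 0, and up to 6 per list by mean CPM; every other gene named (Cxcl14, Ntsr2, Ptprz1, Mgp, Pecam1 and Cdh5, the near-absent markers and the genes outside the lists, for example) was chosen after its values were seen. The wells and the lists were chosen with earlier results of these data known. Some items of the lists are not reported here.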

Additional observations from a re-analysis of the deposited data

Results flagged for a closer look

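Among the 8 astrocyte-positive wells of Young1, 1 lay far from the others in its summed endothelial markers, at 23261 CPM against 36116 to 43888 CPM in the other 7. The gap was 0.623 of the whole range, above Dixon's critical value of 0.526 for 8 wells. Chance gives such a gap in about 1 of 20 groups, and 5 measures were looked at.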

How the results depend on the processing

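DESeq2 was the only tool or setting that called genes: 300 in all, 21 higher and 279 lower, with 11 astrocyte identity genes among the 21. The other fits of edgeR and limma called 0 genes, including those with no filter, upper quartile scaling, 6 sums, wells chosen at 20 or 200 CPM or by 2 genes, thinned wells, all other wells as the comparison, and without wells of high astrocyte or mural levels. The fit with no replicate block also called 0. Leaving out 1 set at a time gave a range of 0 to 0 genes in all, higher, lower and of the astrocyte list. Filters at 5% and 10% of cells, added after the data were seen, left 8930 and 6769 genes and called 0. At an unadjusted p under 0.05 these edgeR and limma fits held at most 1997 genes. The median log2 fold change of all genes moved from -0.73 to -0.86 with upper quartile scaling, -0.14 with no replicate block and 0.02 with limma. Of 34 named genes, 31 kept their direction in every fit that tested them (11 to 18 alternatives, since filters left genes such as Ntsr2, Cspg5 and Mlc1 out of some); Ndrg2 and Nfia turned once and Glul in 2 fits, none of them called. Adjusted p ranged from 2.67e-05 to 1 for Cst3. The 22 astrocyte genes with higher shares without overlap ranged from 19 to 29. Leaving out sets, the arterial share ranged from 23.9% to 30.8%, the capillary from 42.3% to 55.6% and the venous from 19.4% to 26.9%. With 8 astrocyte-positive wells in Young1, shares there move in steps of 12.5%. The causes were not tested.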

Other observations

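Some genes of general function stood lower in the astrocyte-positive wells, named here after their values were seen. Anxa2, a membrane-binding annexin, stood at 331, 344 and 456 CPM in Young1, Young2 and AY_Y3 against 742, 659 and 641 in no-count wells. It was lower without overlap (unadjusted p 0.0131 by edgeR), as were 18.7% of all genes with a count. Ddx5, an RNA helicase, stood at 168.96, 251.1 and 294 CPM against 520, 482 and 425 (unadjusted p 0.0153 by edgeR). In the other direction, Txndc9, a thioredoxin domain protein, had a count in 31 of 54 wells (57.4%) against 29.1%, at 218.2, 200.4 and 240.4 CPM against 132.1, 67.9 and 133.4. Sfxn5, a mitochondrial carrier, had a count in 19 wells (35.2%) against 30 (4.72%). It stood at nearly level 82.5, 77.6 and 79.1 CPM against 9.13, 8.12 and 13.6 (unadjusted p 0.234 by edgeR). None of the 4 passed edgeR's adjusted threshold.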
